A study of Mus musculus with 38 samples.

Results

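Autophagy encloses parts of the cytoplasm in a double membrane, the autophagosome, which fuses with lysosomes where its contents are digested, and mitophagy is the same process directed at mitochondria. In skeletal muscle it is known as a route that returns amino acids and lipids to the cell during food shortage, and its genes are known targets of the FoxO and TFEB transcription factors. Promoter clusters of 10 of its genes were examined in the soleus muscle of mice that had food, were fasted with or without daily torpor, or were fed again: *Ulk1*, *Becn1* and *Wipi1* for the start of the autophagosome, *Gabarapl1*, *Map1lc3a* and *Map1lc3b* for its ATG8 coat proteins, *Sqstm1* and *Bnip3* for the choice of cargo, *Ctsl* for digestion in the lysosome, and *Tfeb* for transcription of the pathway. A cluster was taken as a member if its highest peak lay within 500 bp, on the same strand, of an annotated 5′ end of one of these genes. All 10 genes had such a cluster, and 11 of the 10819 clusters were members, because *Map1lc3a* had 2.

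The libraries were made by nAnT-iCAGE, which sequences the capped 5′ ends of RNA without amplification, so that a tag marks 1 start of transcription and tag numbers of different promoters can be compared without correction for transcript length. Each of the 38 libraries came from the soleus, a slow postural muscle of the lower leg, of 1 young adult male C57BL/6J mouse, taken late in the dark phase. In experiment 1, 4 Pre mice had food on day 1, 8 Mid mice were fasted at low ambient temperature and sampled on day 2, when mice usually enter torpor, and 4 Post mice had been given food again and were sampled on day 3. The 4 HiT mice were fasted at high ambient temperature, the 4 Fed mice kept their food at low ambient temperature, and the 4 Dep mice were fasted and touched gently whenever their oxygen consumption began to drop, all until day 2. For HiT and Fed this follows the article, because the series text gives the HiT mice food and a label of the Fed samples names starvation. By the article's methods, ambient temperature was set before recording and then kept constant, and only the HiT mice are given a high one. The Pre and Fed mice thus both had food at low temperature and were sampled on different days. No group had food at high temperature. From the Pre to HiT, food, temperature and day thus changed together, and their parts cannot be told apart. Experiment 2 was another batch of mice, which the labels place in the second run, of 2 Pre, 5 Mid and 3 Post mice. No mutant was used. According to the study, not every Mid mouse was torpid at the moment of sampling, and which of them were was not used here.

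Libraries had between 18257657 and 39176649 tags in clusters in experiment 1 and between 9359994 and 20914855 in experiment 2, and a member cluster had at least 204 tags in every library. All 7 slow fibre markers were present in every group. The HiT libraries differed in their cell markers, with summed levels of 6 macrophage genes between 90.5 and 196 CPM (tag counts scaled to the normalized library total) against 27.2 to 60.5 in the other libraries of experiment 1, tendon and fibroblast genes between 2130 and 4700 against 1110 to 2820, and slow fibre genes between 12100 and 16600 against 13800 to 20300. The defining macrophage marker *Adgre1* had no cluster. Of 4 endothelial markers, 1 was higher and 2 lower from the Pre to Mid at an FDR below 0.05, against 30.2% of all clusters called. From the Fed to Mid (35.2%), 1 was higher and 3 lower, and all 4 red blood cell markers with a cluster were lower. From the Pre to HiT (33.4%), 3 of these 4 were lower. The part of all these cells in the results below was not tested. In whole muscle, fewer cells of a type and less RNA per cell cannot be told apart. Of the Mid libraries, Mid 6 in experiment 1 and Mid 10 in experiment 2 had the lowest level of 7 of the 11 member clusters, the same 7 in both, namely *Gabarapl1*, *Ulk1*, *Sqstm1*, *Bnip3*, *Ctsl*, *Wipi1* and *Map1lc3b*. Leaving out the lowest mouse raises the Mid mean of these clusters, so values without Mid 6 or Mid 10 below say nothing of stability. The 10 most abundant clusters took 31.5% of the tags of Mid 6 and 21.8% of those of Mid 10. The largest share of all libraries was that of HiT 4, at 40.3%.

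The peaks of the clusters lay between 90 bp before and 59 bp after the nearest annotated start of the gene. In mm10 (GRCm38), single peaks were at position 110810056 of chromosome 5 for *Ulk1* (minus strand), 101302258 of chromosome 11 for *Becn1* (minus), 109611399 of chromosome 11 for *Wipi1* (minus), 129533241 of chromosome 6 for *Gabarapl1* (plus), 121590468 of chromosome 8 for *Map1lc3b* (plus), 50210793 of chromosome 11 for *Sqstm1* (minus), 138909487 of chromosome 7 for *Bnip3* (minus), 64370308 of chromosome 13 for *Ctsl* (minus) and 47737055 of chromosome 17 for *Tfeb* (plus). Both *Map1lc3a* clusters are on the plus strand of chromosome 2, with the upstream peak at 155276453 and the downstream peak at 155276948, each close to an annotated start of its own. No other annotated gene started within 500 bp of a member peak on the same strand.

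The sequences up to the CAGE peak are shown for the 4 genes that rose from the Pre to Mid in both experiments, for *Bnip3* as the most abundant member and for *Tfeb* as the member that fell from the Pre to HiT and to Dep. Each line gives the 200 bases before the peak and the peak base, 5′ to 3′ on the strand of the gene, from the RefSeq promoter set for GRCm38.p6. Capitals mark the peak base, which is the last letter, and any match to a motif named below.
Gabarapl1 (chr6:129533041-129533241, plus strand): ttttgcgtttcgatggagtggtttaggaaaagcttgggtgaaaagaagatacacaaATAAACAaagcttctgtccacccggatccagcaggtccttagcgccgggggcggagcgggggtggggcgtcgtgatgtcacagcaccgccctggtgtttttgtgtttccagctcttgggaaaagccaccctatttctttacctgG
Ulk1 (chr5:110810056-110810256, minus strand): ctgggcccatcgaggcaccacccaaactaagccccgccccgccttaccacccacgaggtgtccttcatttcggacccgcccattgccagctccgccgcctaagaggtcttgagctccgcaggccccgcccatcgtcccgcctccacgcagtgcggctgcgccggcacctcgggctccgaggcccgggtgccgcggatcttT
Sqstm1 (chr11:50210793-50210993, minus strand): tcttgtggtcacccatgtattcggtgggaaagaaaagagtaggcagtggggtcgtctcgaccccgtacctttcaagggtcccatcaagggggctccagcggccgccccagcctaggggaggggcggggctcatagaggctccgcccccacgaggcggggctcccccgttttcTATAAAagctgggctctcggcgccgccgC
Map1lc3b (chr8:121590268-121590468, plus strand): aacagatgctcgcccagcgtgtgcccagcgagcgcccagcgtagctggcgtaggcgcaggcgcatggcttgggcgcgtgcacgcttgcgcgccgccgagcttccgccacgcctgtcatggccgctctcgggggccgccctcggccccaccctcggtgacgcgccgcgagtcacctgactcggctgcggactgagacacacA
Bnip3 (chr7:138909487-138909687, minus strand): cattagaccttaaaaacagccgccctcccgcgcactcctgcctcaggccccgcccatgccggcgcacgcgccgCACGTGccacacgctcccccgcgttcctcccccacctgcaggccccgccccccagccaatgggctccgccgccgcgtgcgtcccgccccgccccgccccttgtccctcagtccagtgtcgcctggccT
Tfeb (chr17:47736855-47737055, plus strand): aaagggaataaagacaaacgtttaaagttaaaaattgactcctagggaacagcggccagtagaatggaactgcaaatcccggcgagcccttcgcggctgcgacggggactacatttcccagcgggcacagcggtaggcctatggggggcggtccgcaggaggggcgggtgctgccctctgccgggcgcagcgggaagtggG

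Of the 11 clusters, 7 had their peak inside a RefSeq window, which runs from 250 bases before to 50 after the RefSeq start. No window was found for *Map1lc3a* and *Becn1*, and the peak of *Ctsl* lay outside its window. These 7 windows were searched on both strands for exact matches. The E-box CACGTG, the core of the motif bound by TFEB, was found in 1 of 7, in *Bnip3* at 127 to 122 bases before the peak, and in 7.15% of all 32851 windows of this length. The longer form TCACGTGA, which contains the E-box, was found in none of the 7 and in 0.974% of all windows. The forkhead motif GTAAACA was found in none of the 7 and in 3.65% of all. Its variant ATAAACA, searched for after the *Gabarapl1* sequence had been read, was found in *Gabarapl1* at 144 to 138 bases before the peak and in 4.6% of all windows. The cyclic AMP response element TGACGTCA was in none of the 7 and in 1.79% of all, and TATAAA was in *Sqstm1*, from 28 to 23 bases before the peak, and in 13.6% of all. A match is a description of the letters in the window, and its absence says nothing of the factor.

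From the Pre to Mid in experiment 1, 7 of the 11 clusters rose and none fell at an FDR below 0.05, where 30.2% of the 10776 clusters tested passed, 15.4% of them higher and 14.8% lower (edgeR quasi-likelihood test, Benjamini-Hochberg adjustment over all clusters, as for every FDR below). The 7 were *Gabarapl1*, *Ulk1*, *Sqstm1*, *Bnip3*, *Ctsl*, *Wipi1* and *Map1lc3b*. In 5 of the 11, every Mid mouse was above every Pre mouse, where 14.8% of all clusters had groups without overlap. The median log2 fold change (log2FC) of the 11 was 0.38, against 0.01 for all clusters. From the Mid to Post, 6 fell and 1 rose, where 35% of all clusters were called, 17.5% in each direction, and in 4 of the 11 every Post mouse was below every Mid mouse, against groups without overlap in 17% of all clusters. None of the 11 was called from the Pre to Post, where 1.85% of all clusters were. That comparison had 4 members without overlap, of which *Gabarapl1*, *Ulk1* and *Ctsl* were lower and *Wipi1* higher in all Post mice, against 11.5% of all clusters, and 5 of the 11 had an unadjusted p below 0.05. The likelihood ratio test and DESeq2 called none of the 11. With library size in place of TMM, 3 members were called from the Pre to Mid (*Gabarapl1*, *Sqstm1* and *Ulk1*) and 4 from the Mid to Post (the same 3 and *Ctsl*). All these comparisons share libraries, so their counts are not independent. The members were chosen with earlier results of these data known, so counts set beside the shares of all clusters are a description.

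**Figure D1:**
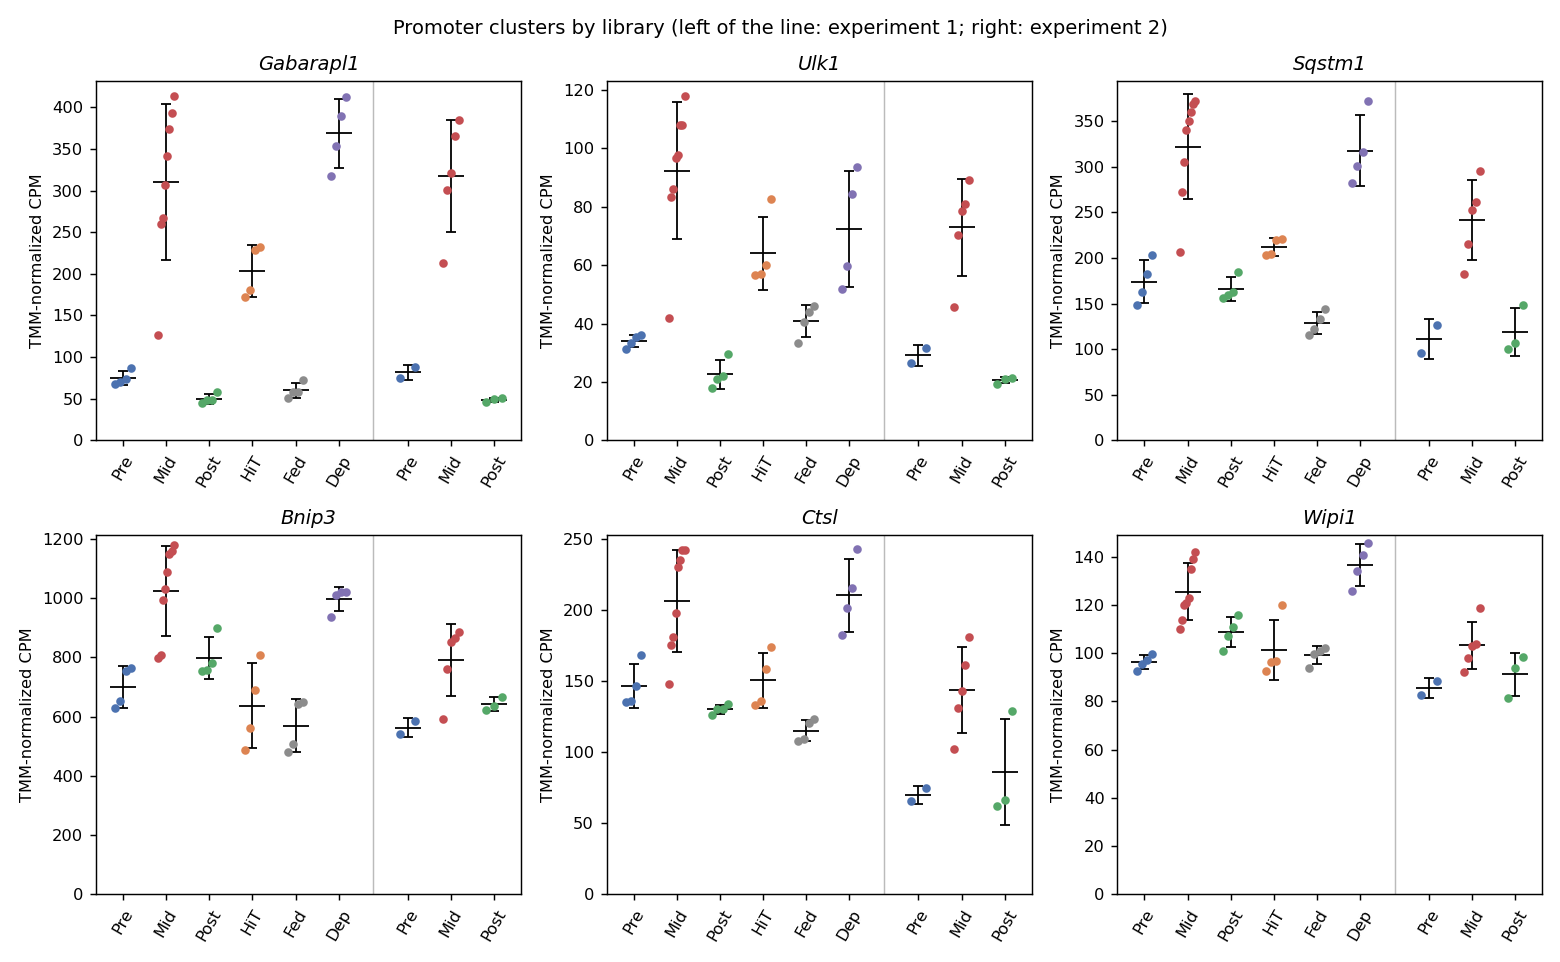
Levels of 6 promoter clusters in each library (points; y axis, TMM-normalized CPM from 0), with group mean and SD (horizontal mark and bars), for the 6 groups of experiment 1 left of the vertical line and the 3 of experiment 2 right of it. The lowest Mid point in every panel is Mid 6 on the left and Mid 10 on the right.

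*Gabarapl1*, an ATG8 protein that is attached to the autophagosome membrane, had the largest log2FC of the members in both of these steps, Pre to Mid and Mid to Post. Its cluster had 67.2 to 87.2 CPM in the Pre mice (mean 74.7 ± 8.76, SD, n = 4). In the 8 Mid mice the lowest value was 126, the median 324 and the highest 413 CPM (310 ± 93.1). The Post mice were at 44.4, 57.9, 48.7 and 48.6 CPM (49.9 ± 5.72), below every Pre mouse. The log2FC was 2.05 ± 0.21 (SE) from the Pre to Mid (FDR 1.17e-07) and fell by 2.63 from the Mid to Post (FDR 2.47e-09). Without Mid 6, the lowest Mid mouse at 126 CPM, the rise was larger by this choice, at 2.19 (FDR 3.49e-11). The Pre and Post groups did not overlap, with a log2FC of -0.58 and an FDR of 0.214 in the fit of all groups. With only the 2 compared groups in the fit it was -0.56 (FDR 0.0228).

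The 4 Fed mice, which like the Pre had food at low ambient temperature, had 51.2 to 72.9 CPM (60.2 ± 9.11). This did not differ from the Pre at this depth and number of mice (log2FC -0.31 ± 0.22, FDR 0.379). The 4 HiT mice, fasted in the warm, were at 232, 181, 228 and 172 CPM (203 ± 31.2). All of them were above every Pre and every Fed mouse, and the rise from the Pre was 1.44 on the log2 scale (FDR 1.54e-05). The Mid mice were higher again than the HiT mice by 0.61 ± 0.19 (FDR 0.0128), although the groups overlapped, and this call was lost when only these 2 groups were fitted (FDR 0.0702). The 4 Dep mice reached 318, 354, 390 and 412 CPM (368 ± 41.4), with a log2FC of 0.25 ± 0.19 from the Mid (FDR 0.479).

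*Ulk1* encodes the kinase that starts autophagosome formation when nutrients run low. It was a weakly used promoter in the Pre mice, at 36, 31.3, 33.5 and 35.5 CPM (34.1 ± 2.15). In the Mid mice it ranged from 41.8 over a median of 97 to 118 CPM (92.4 ± 23.5), and the Post mice were at 20.9, 21.9, 18.1 and 29.7 CPM (22.7 ± 4.95). Every Mid mouse was above every Pre mouse and every Post mouse. The log2FC was 1.44 ± 0.21 from the Pre to Mid (FDR 9.43e-06) and -2.03 ± 0.21 from the Mid to Post (FDR 7.89e-08). The value of 41.8 was Mid 6, and the other Mid mice began at 83.3 CPM. Without Mid 6, the lowest, the rise was again larger by this choice, at 1.56 (FDR 3.28e-08).

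In the HiT mice *Ulk1* was at 82.5, 60.1, 56.9 and 56.5 CPM, again above every Pre mouse (log2FC 0.91 ± 0.22, FDR 0.00252). The Fed mice were at 46, 40.4, 43.9 and 33.3 CPM, and were not called against the Pre (log2FC 0.26 ± 0.22, FDR 0.477). The Mid level was above that of the Fed by a log2FC of 1.18 (FDR 7.18e-05) and above that of the HiT by 0.53 ± 0.2 (FDR 0.0318). The call against the HiT rested on several libraries, as leaving out Mid 3, Mid 5, HiT 2, HiT 3 or HiT 4 gave log2FCs of 0.47, 0.49, 0.5, 0.5 and 0.51 with FDRs from 0.0529 to 0.0812. The Dep mice were spread widely, at 84.2, 59.8, 93.6 and 51.7 CPM, with a log2FC of -0.35 ± 0.19 from the Mid (FDR 0.321).

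*Becn1*, a subunit of the PI3-kinase complex that marks the growing membrane, varied little between groups. Group means of experiment 1 lay between 53.6 ± 5.49 in the HiT and 60.7 ± 3.54 CPM in the Pre, and single mice between 49 and 66.5 CPM. In the fit of all groups it was called in none of the 9 comparisons of experiment 1 and in neither comparison of experiment 2, and from the Pre to Mid its log2FC was -0.01 ± 0.07 (FDR 0.914). Its closest approach to a call was the HiT level, below that of the Mid by a log2FC of 0.17 ± 0.07 (FDR 0.0512), and without HiT 3, the highest of the 4 HiT mice, that difference was 0.26 (FDR 0.00532). It was also called without Mid 2, Mid 3, Mid 6 or Mid 8 (log2FC 0.18 to 0.2, FDR 0.00922 to 0.0444) and by DESeq2 (0.18, FDR 0.0248), and from the Pre to HiT *Becn1* was called with upper-quartile scaling (-0.25, FDR 0.018) and without HiT 3 (-0.26, FDR 0.0143). *Wipi1*, which binds the lipid made by that complex, rose modestly, from 92.8 to 99.9 CPM in the Pre (96.4 ± 3.01) to a lowest value of 110, a median of 122 and a highest of 142 CPM in the Mid (126 ± 11.9). The groups did not overlap (log2FC 0.38 ± 0.07, FDR 0.000269). The 4 Post mice at 101 to 116 CPM had a log2FC of -0.21 from the Mid (FDR 0.0277), a call that was lost without Mid 4, Mid 7, Post 1 or Post 3 (log2FC between -0.2 and -0.17, FDR 0.0508 to 0.116) and with the replicate number as a block (FDR 0.0788). Here and below, that block sets only Mid 1 to Mid 4 against other groups. No other group of experiment 1 has the numbers of Mid 5 to Mid 8. For *Wipi1* the HiT mice (101 ± 12.4 CPM) and the Fed mice (99 ± 3.54) were near the Pre level, with log2FCs of 0.07 ± 0.08 and 0.04 ± 0.08, and the Dep mice (137 ± 8.89) were all above the Pre (log2FC 0.51, FDR 5.69e-05).

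**Figure D2:**
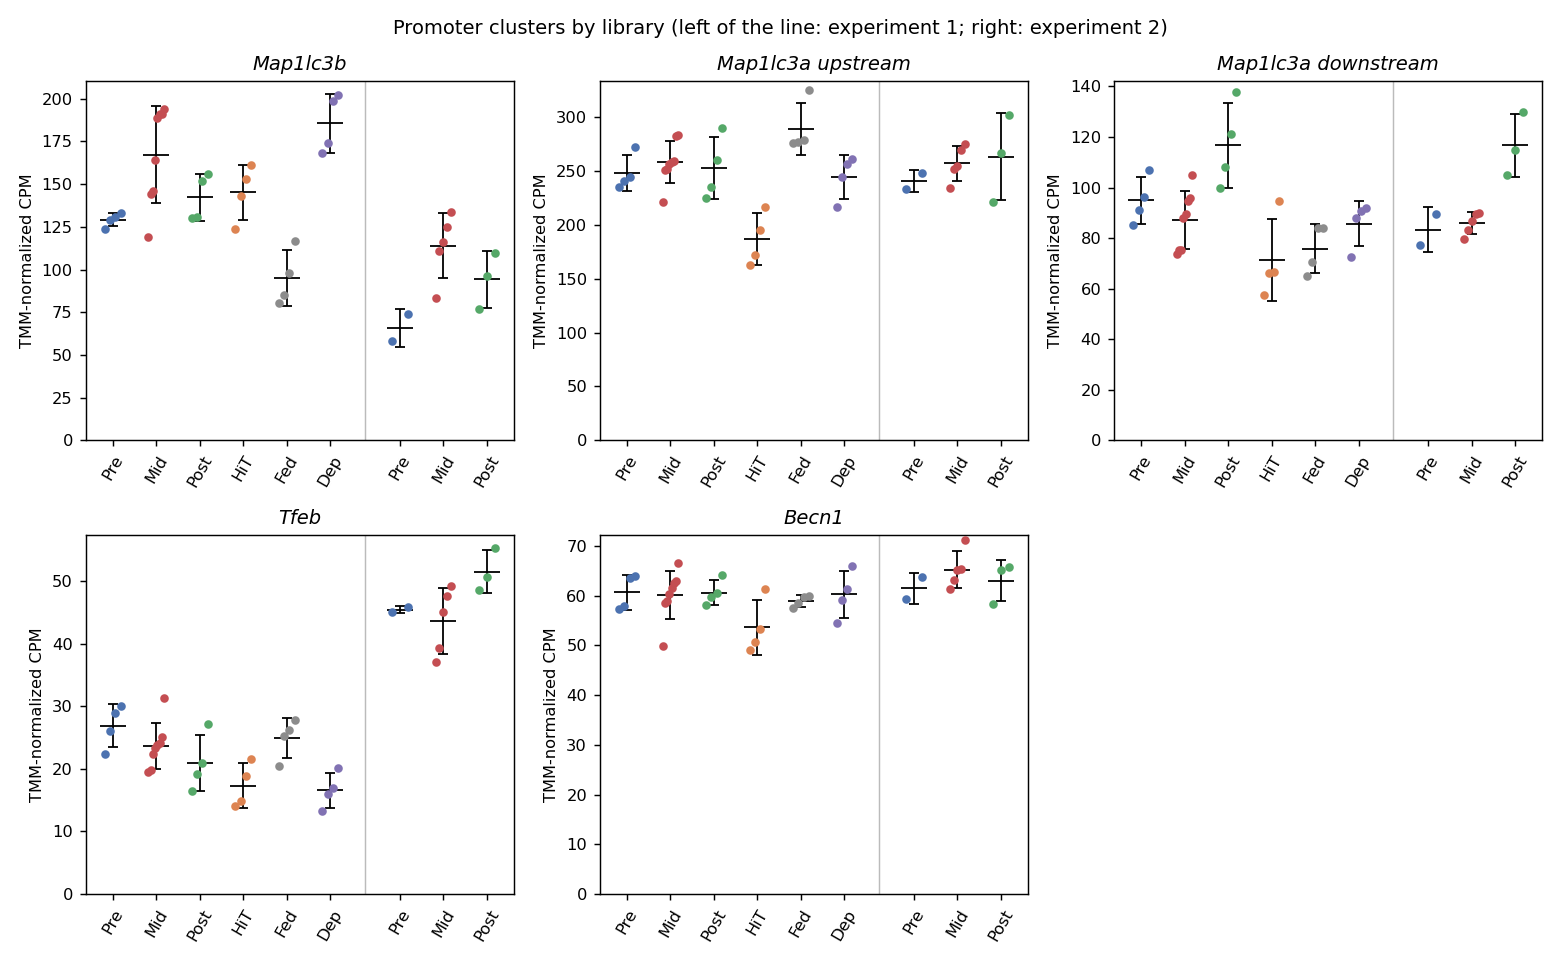
Levels of 5 promoter clusters in each library (points; y axis, TMM-normalized CPM from 0), with group mean and SD, for experiment 1 left of the vertical line and experiment 2 right of it. *Becn1* stays between 49 and 71.1 CPM in all libraries, the downstream cluster of *Map1lc3a* is highest in the Post mice, and *Tfeb* is lowest in the HiT and Dep mice.

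*Map1lc3b*, the LC3 protein most used as a marker of autophagosomes, rose from 124 to 133 CPM in the Pre mice (129 ± 4.2) to a lowest value of 119, a median of 176 and a highest of 194 CPM in the Mid (167 ± 28.3). The lowest Mid mouse, Mid 6, was inside the Pre range. The log2FC was 0.37 ± 0.12 (FDR 0.0173), which was lost without Pre 2 (0.35, FDR 0.0571) and when only the 2 groups were fitted (FDR 0.0569). The Post mice had 131, 152, 156 and 130 CPM, with a log2FC of -0.23 ± 0.12 from the Mid (FDR 0.125), and without Mid 6 it was -0.28 (FDR 0.0384). The Fed mice were all below every Pre mouse, at 85.2, 80.3, 117 and 97.8 CPM (log2FC -0.45 ± 0.13, FDR 0.032), so that the difference from the Fed to Mid was larger, at 0.81 (FDR 9.11e-06). In the HiT mice the level was 145 ± 15.7 CPM (log2FC from the Pre 0.17, FDR 0.35), and in the Dep mice, 168 to 202 CPM, all were above the Pre (log2FC 0.52, FDR 0.00454).

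Tags of *Map1lc3b* may be shared with a near-identical copy. The annotated processed pseudogene *Gm6055* on chromosome 14 shared 317 of its 348 stretches of 31 bases (91.1%) with *Map1lc3b* transcripts, and a cluster next to its start had 161 ± 6.3 CPM in the Pre and 230 ± 45.2 CPM in the Mid mice, above *Map1lc3b* itself. Over the 28 libraries of experiment 1 the levels of both clusters had a Pearson r of 0.992 on the log2 scale, and over the 10 libraries of experiment 2 of 0.996, given as a description. The deposited counts are of rescued tags, and how tags that map to both places were shared is not given in the sources used here, so the level of each cluster alone is uncertain. With the tags of both clusters summed, an alternative chosen after seeing the data, the log2FC of *Map1lc3b* from the Pre to Mid was 0.45 (FDR 0.00717). In the first 100 bases of transcripts starting near a member peak, no stretch of 31 bases of the other 9 genes was found in a transcript of another gene. *Map1lc3b* shared 29 of 229 such stretches with *Gm6055*, 28 with *Gm5612*, 10 with *Gm6054* and 7 with *Gm12727*, and the tags of the last 3 were not added to the sum.

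The upstream cluster of *Map1lc3a*, the other LC3 gene, held most of the tags of that gene. It was called neither from the Pre to Mid nor from the Mid to Post. Levels were 235 to 272 CPM in the Pre (248 ± 17), 221 over a median of 257 to 283 in the Mid (258 ± 19.4) and 225 to 290 in the Post (252 ± 29.2), all overlapping (log2FC from the Pre to Mid 0.06 ± 0.08, FDR 0.626). It was lower in the HiT mice, at 195, 172, 216 and 163 CPM (187 ± 23.9), all below every Pre and every Mid mouse (log2FC from the Pre -0.41, FDR 0.00148, and from the HiT to Mid 0.47, FDR 7.76e-05). The Fed mice were all above the Pre, at 325, 277, 276 and 278 CPM, but this was not called (log2FC 0.22 ± 0.09, FDR 0.122).

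The downstream cluster of *Map1lc3a* was the only member that rose from the Mid to Post, and it did so in both experiments. In experiment 1 the Mid mice had 73.8 to 105 CPM (median 88.7, mean 87.1 ± 11.3) and the Post mice 121, 138, 108 and 99.7 CPM (117 ± 16.6), with a log2FC of 0.42 ± 0.12 (FDR 0.00703). Without Post 2, the highest, it was 0.33 (FDR 0.0522). In experiment 2 the 3 Post mice, at 130, 115 and 105 CPM, were all above the 5 Mid mice at 79.8 to 89.9 CPM (log2FC 0.44 ± 0.09, FDR 0.00731). The downstream cluster was also lower in the HiT (71.2 ± 16.2 CPM) than in the Pre mice (94.9 ± 9.21, log2FC -0.41, FDR 0.0218), and this call was lost without Pre 4, HiT 1, HiT 2 or HiT 4 (log2FC between -0.4 and -0.32).

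The same tags were also expressed as the balance of the 2 start sites of *Map1lc3a*, which restates these levels and is not a further result. The downstream cluster held 26.6 to 28.3% of the tags of both in the Pre mice of experiment 1 (27.7% ± 0.771, n = 4), 23 to 27.1% in the Mid (25.2% ± 1.75, n = 8) and 27.7 to 34% in the Post (31.6% ± 2.69, n = 4). The Post share was higher than the Mid share in every mouse, by 6.38 points (two-sided exact permutation test p = 0.00404, the smallest this design allows, adjusted p = 0.0444 over 11 comparisons). Leaving out any 1 of these 12 mice moved the difference to between 5.57 and 7.67 points and the adjusted p to 0.0667 or 0.0785. With 11 mice the smallest p this test can give is 0.00606 or 0.0121, so that the adjusted p could not pass 0.05 and says nothing of stability. In experiment 2 the Mid share was 25.1% ± 1.56 (n = 5) and the Post share 30.8% ± 1.2 (n = 3), again without overlap (exact permutation p = 0.0357, the smallest this design allows, adjusted p = 0.0785). The lowest share was in the Fed mice, at 16.7 to 23.4% (20.9% ± 3.14), all below the Pre (exact permutation p = 0.0286, the smallest for 4 against 4, adjusted p = 0.0785). This share and its test were chosen after the levels had been seen, and its 95% Wilson interval in a single library, which covers counting error only, was between 1.3 and 3.2 points wide.

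*Sqstm1* encodes p62, which ties ubiquitin-tagged cargo to the autophagosome and is itself digested with it. The Pre mice had 183, 163, 148 and 203 CPM (174 ± 24), the Mid mice 207 over a median of 345 to 372 CPM (322 ± 57.8) and the Post mice 185, 163, 156 and 159 CPM (166 ± 13.1). Every Mid mouse was above every Pre and Post mouse, and the 7 Mid mice other than Mid 6 began at 273 CPM. The log2FC was 0.89 ± 0.12 from the Pre to Mid (FDR 6.09e-06) and fell by 0.96 to the Post (FDR 1.34e-06). The 4 HiT mice were in a narrow range of 203 to 221 CPM, above every Pre mouse, but the rise of 0.28 ± 0.14 was not called (FDR 0.11). It was called with the replicate number as a block, with a log2FC of 0.29 (FDR 0.0316). The Fed mice were all below the Pre, at 133, 116, 144 and 122 CPM (log2FC -0.44 ± 0.14, FDR 0.0392), and the difference from the Fed to Mid was 1.32 (FDR 6.13e-08). The Dep mice had 282 to 372 CPM (318 ± 38.6), with a log2FC of -0.02 ± 0.12 from the Mid (FDR 0.944).

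*Bnip3*, a receptor in the outer mitochondrial membrane that recruits autophagosomes to mitochondria, had the highest level of all members in each group. The Pre mice had 754, 628, 653 and 765 CPM (700 ± 69.3) and the Mid mice 797 over a median of 1060 to 1180 CPM (1030 ± 152), without overlap (log2FC 0.55 ± 0.13, FDR 0.00157). The Post mice, at 756, 901, 754 and 782 CPM (799 ± 69.8), had a log2FC of -0.36 from the Mid (FDR 0.0266). That call was lost without Post 1, Post 3 or Post 4 (log2FC -0.34, -0.33 and -0.35) and with the replicate block (FDR 0.064). Unlike *Gabarapl1* and *Ulk1*, *Bnip3* was not above the Pre in the HiT mice, at 691, 486, 810 and 561 CPM (log2FC -0.14 ± 0.14, FDR 0.487), and the Mid mice were above the HiT by 0.69 (FDR 0.000117) and above the Fed (570 ± 89.4 CPM) by 0.85 (FDR 1.44e-05). Whether the change of *Bnip3* from the Pre to HiT, in which food and temperature both changed, differed from those of the other members was not tested. The Dep mice had 937 to 1020 CPM, all above the Pre (log2FC 0.51, FDR 0.00926).

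*Ctsl* encodes cathepsin L, a protease of the lysosome. It had 168, 135, 136 and 146 CPM in the Pre (146 ± 15.4), 148 over a median of 214 to 242 CPM in the Mid (206 ± 35.8) and 126 to 134 CPM in the Post mice (130 ± 3.47). The log2FC was 0.5 ± 0.11 from the Pre to Mid (FDR 0.00144), with Mid 6 at 148 inside the Pre range, and -0.67 ± 0.11 from the Mid to Post (FDR 5.54e-05), without overlap. The HiT mice (150 ± 19.4 CPM) were near the Pre, with a log2FC of 0.04 ± 0.13. The Fed mice, 108 to 123 CPM, were all below the Pre, with a log2FC of -0.35 ± 0.13 and an FDR of 0.0751. This was called by DESeq2 (FDR 0.0456), with upper-quartile scaling (FDR 0.0468), with only the compared groups (FDR 0.0477) and with the replicate block (FDR 0.0393). The Dep mice, 182 to 243 CPM, were all above it (log2FC 0.52, FDR 0.00328).

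*Tfeb*, the transcription factor that drives lysosomal genes when it enters the nucleus, had the lowest mean of the members in all 6 groups of experiment 1 and did not rise from the Pre in any comparison. The Pre mice had 22.4, 26.1, 30.1 and 28.9 CPM (26.9 ± 3.41) and the Mid mice 19.5 over a median of 23.5 to 31.3 CPM (23.7 ± 3.68), with a log2FC of -0.18 ± 0.14 (FDR 0.335). The HiT mice were all below the Pre, at 18.9, 14.8, 21.6 and 14 CPM (log2FC -0.63 ± 0.16, FDR 0.00371), and so were the Dep mice, at 16.9, 16, 20.1 and 13.3 CPM (log2FC -0.69 ± 0.16, FDR 0.00242). From the Mid to Dep the log2FC of -0.51 ± 0.14 had an FDR of 0.0623, and it was called with the likelihood ratio test (FDR 0.0297), DESeq2 (FDR 0.0213) and the replicate block (-0.64, FDR 0.0363), and without Mid 6 (-0.54) or Dep 3 (-0.62), both at an FDR of 0.0378. A further cluster on the same strand inside *Tfeb*, at 47748957 to 47749384 of chromosome 17, lay outside the 500 bp and was not a member. It had 9.37 ± 2.43 CPM in the Pre, 8.67 ± 1.25 in the Mid and 7.93 ± 1.76 in the Dep mice.

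Across the conditions, 8 of the 11 clusters were higher in the Mid than in the HiT mice and none lower. Of all clusters, 41% were called in this comparison, 19.2% higher and 21.8% lower. The groups were without overlap in only 1 of the 11, the upstream *Map1lc3a* cluster, against 18.8% of all clusters. With only these 2 groups fitted, *Gabarapl1* (FDR 0.0702) and *Ulk1* (FDR 0.0749) were not called. The Mid was above the Fed in 7 and below it in none, against 35.2%, and these were the same 7 genes that rose from the Pre to Mid. From the Pre to HiT, *Gabarapl1* and *Ulk1* rose while *Tfeb* and both *Map1lc3a* clusters fell, so that 5 of 11 were called against 33.4% of all clusters. Between these groups, all 6 macrophage markers with a cluster were also higher in the HiT mice. Of 7 tendon and fibroblast markers, 1 was called higher and 1 lower. In the Fed mice, *Sqstm1* and *Map1lc3b* fell against the Pre and no member rose, 2 of 11 against 11.2% of all clusters. Both calls were lost without Pre 1, Pre 2, Pre 4, Fed 1 or Fed 2, and 1 was left without Pre 3 (*Sqstm1*) or Fed 4 (*Map1lc3b*). In the Dep mice, the 7 genes that rose in the Mid also rose from the Pre and *Tfeb* fell, 8 of 11 against 25.8% of all clusters. Without TMM 4 were called (*Gabarapl1*, *Sqstm1*, *Ulk1* and *Tfeb*). In Dep 1 the summed neutrophil markers were at 133 CPM, against 0.283 to 0.919 in the other Dep mice, and without Dep 1 the same 8 members were called. None of the 11 was called from the Mid to Dep, where 2.03% of all clusters were, and by their unadjusted p only *Tfeb* was below 0.05. DESeq2 and the likelihood ratio test each called 1 member there.

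**Figure D3:**
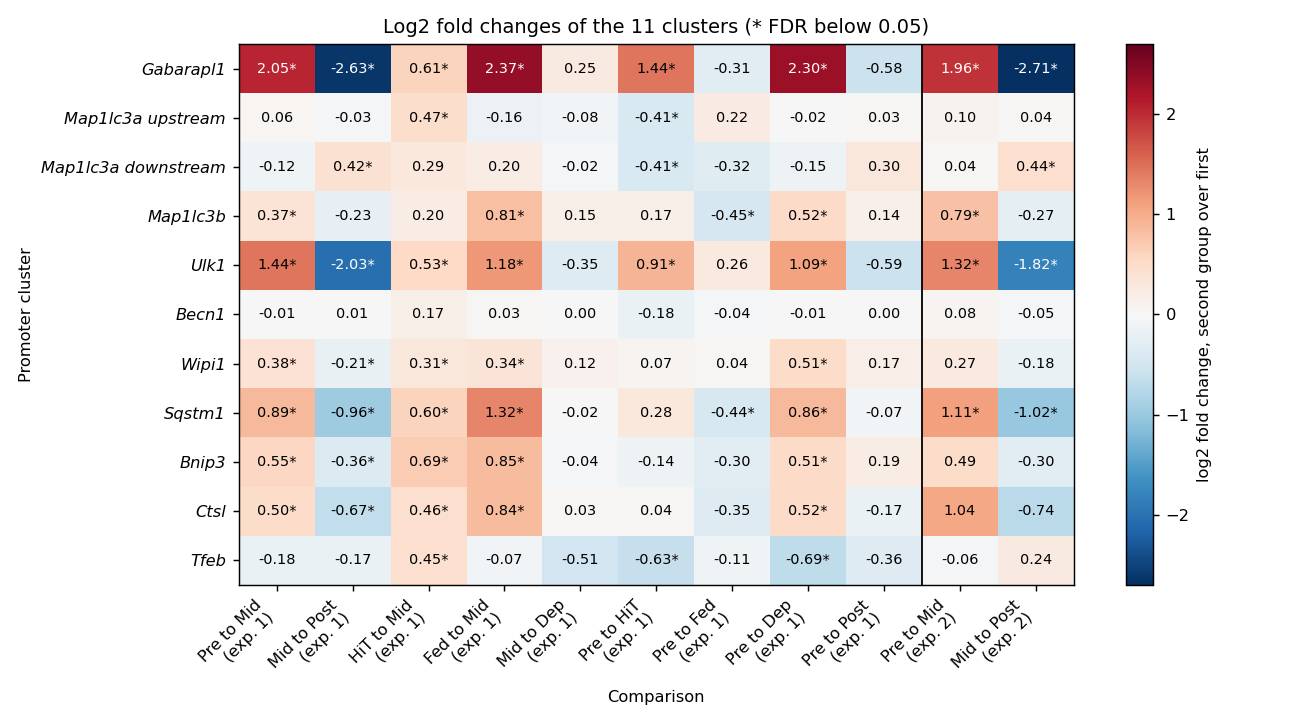
Log2FC of the 11 clusters (rows) in the 9 comparisons of experiment 1 and the 2 of experiment 2 (columns, right of the vertical line), with the color scale from blue (lower in the second group) to red (higher). Asterisks mark an FDR below 0.05: *Gabarapl1* and *Ulk1* are marked in the same 6 columns of experiment 1, *Becn1* in none, and the Mid to Dep and Pre to Post columns have no mark.

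In experiment 2, with fewer and shallower libraries, 4 of the 11 clusters rose from the Pre to Mid (*Gabarapl1*, *Ulk1*, *Sqstm1* and *Map1lc3b*) and none fell, where 9.74% of all clusters were called. From the Mid to Post, *Gabarapl1*, *Ulk1* and *Sqstm1* fell and the downstream *Map1lc3a* cluster rose, 4 of 11 against 16.4%. For *Gabarapl1* the 2 Pre mice had 75.1 and 88.3 CPM, the 5 Mid mice 385, 213, 301, 366 and 321 CPM and the 3 Post mice 45.6, 50.9 and 49.1 CPM, with log2FCs of 1.96 ± 0.21 (FDR 0.000803) and -2.71 ± 0.19 (FDR 1.84e-05). For *Ulk1* the Pre mice had 31.6 and 26.6, the Mid mice 70.3, 45.8, 78.4, 89.2 and 81, and the Post mice 21.3, 21 and 19.4 CPM (log2FC 1.32, FDR 0.00541, and -1.82, FDR 0.000188). For *Sqstm1* they had 127 and 96.2, then 253, 182, 215, 296 and 261, then 149, 107 and 100 CPM (log2FC 1.11, FDR 0.0117, and -1.02, FDR 0.0041). None of the 3 genes had overlapping groups in either comparison. With these few mice such separation was common: of all clusters in experiment 2, 31.2% showed it for Pre against Mid and 23.3% for Mid against Post.

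The calls from the Pre to Mid in experiment 2 leaned on its 2 Pre mice. Without Pre 5, *Gabarapl1* and *Ulk1* were left, and without Pre 6 only *Gabarapl1*. The call of *Map1lc3b* was also lost without Mid 9, Mid 12 or Mid 13 (log2FC 0.72, 0.75 and 0.79, FDR 0.0536, 0.063 and 0.053) and with lane as a term (0.79, FDR 0.053). Mid 10 lowered several differences, and without it 6 members were called in each comparison. Without Mid 10, *Bnip3* (log2FC 0.59, FDR 0.00675) and *Ctsl* (1.15, FDR 0.0303) were added from the Pre to Mid. In the fit of all 10 libraries *Bnip3* had a log2FC of 0.49 (FDR 0.0658) and *Ctsl* of 1.04 (FDR 0.0536). The Pre and 4 of the 5 Mid libraries were sequenced on lane 3 and Mid 13 and the Post libraries on lane 4. With lane as a term, 2 members were called from the Mid to Post, *Gabarapl1* and *Ulk1*, while *Sqstm1* had a log2FC of -1.13 (FDR 0.051) and the downstream *Map1lc3a* cluster of 0.43 (FDR 0.155).

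The changes of both experiments were compared by an interaction term. No member and 0% of all clusters were called for the Pre to Mid change (19 libraries) or for the Mid to Post change (20 libraries, 0% of all clusters), with 515 and 563 clusters at an unadjusted p below 0.05. The largest differences among the members were in *Ctsl*, which rose more in experiment 2 by 0.57 ± 0.25 on the log2 scale (unadjusted edgeR p = 0.0333, FDR 0.997), and *Map1lc3b*, by 0.45 ± 0.23 (FDR 0.997). For *Gabarapl1* the differences were -0.07 ± 0.38 and -0.1 ± 0.34. Levels, unlike changes, were not tested between the experiments, whose values were normalized separately. Side by side, *Tfeb* had 45.4 ± 0.503 CPM in the 2 Pre mice of experiment 2 and *Ctsl* 69.9 ± 6.31 CPM.

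**Figure D4:**
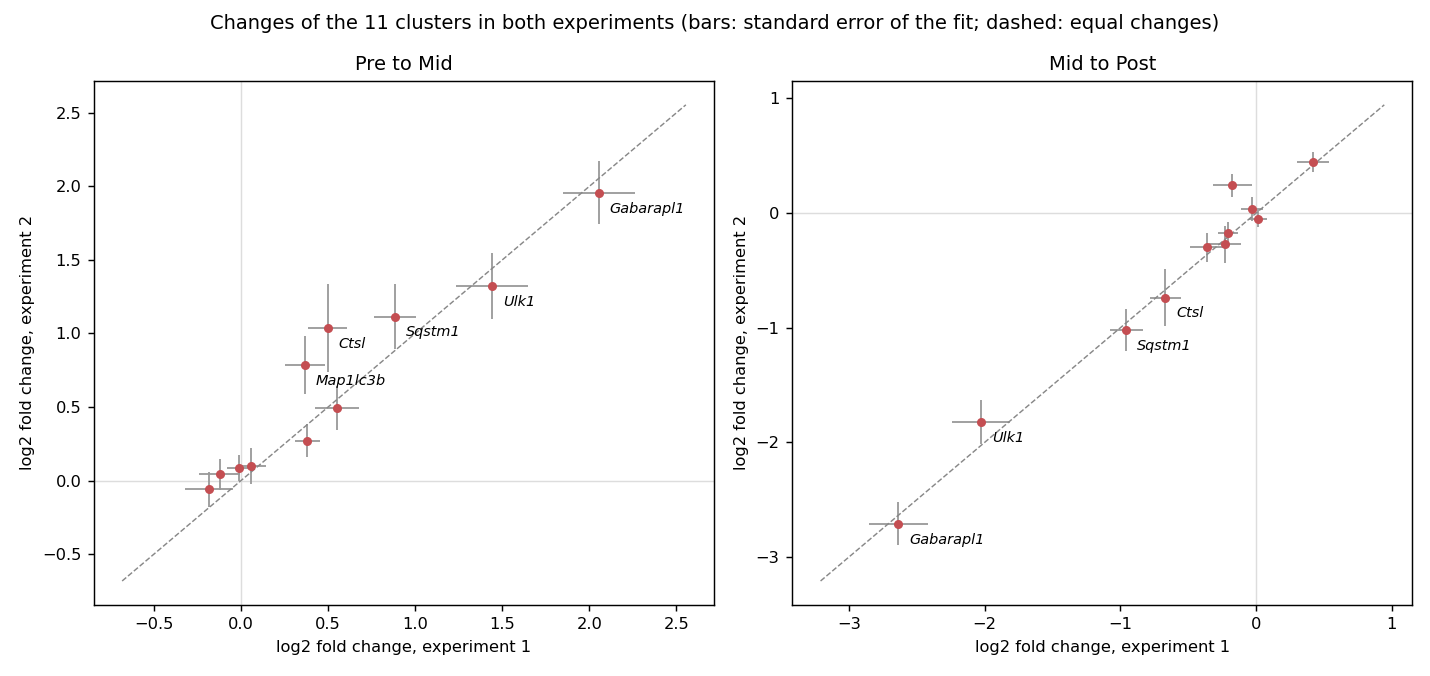
Log2FC of the 11 clusters in experiment 1 (x axis) and experiment 2 (y axis) in the Pre to Mid (left) and the Mid to Post (right), with the SE of each fit as bars and equal changes as the dashed line. *Gabarapl1*, *Ulk1* and *Sqstm1* lie near the line in both panels, and *Ctsl* and *Map1lc3b* lie above it on the left.

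The other genes of the pathway were taken from 8 lists of 86 genes, of which 80 had a cluster, and each gene is given by its most abundant one. The lists were chosen with earlier results of these data known, and the shares of all clusters include every cluster with any tag. Counts set beside those shares are thus a description. No cluster was assigned to *Atg4a*, *Atg4b*, *Atg7*, *Atg10*, *Usp30* and *Vps41*. From the Pre to Mid in experiment 1, 29 of the 80 genes were higher and 8 lower (46.2% called, against 30.2% of all clusters), and from the Mid to Post 8 were higher and 33 lower (51.2%, against 35% of all clusters). Of all clusters, 15.4% were higher and 14.8% lower in the first of these steps, and 17.5% in each direction in the other, which is the background for the counts of each list below. In experiment 2 there were 13 higher and 2 lower (18.8%, against 9.74% of all clusters), and then 6 higher and 17 lower (28.7%, against 16.4%). From the HiT to Mid, 18 of the 80 were higher and 10 lower (35%, below the 41% of all clusters). From the Fed to Mid, 27 were higher and 5 lower (40%, against 35.2%). From the Mid to Dep, 1 of the 80 was called (1.25%, against 2.03%), and from the Pre to Post also 1 (1.25%, against 1.85%). Near the background only in total were the counts from the Pre to HiT, with 21 higher and 8 lower (36.2%, against 33.4%). Of all clusters, 18.5% were higher and 14.9% lower there. Among the 18 lysosomal genes, 9 were higher and 2 lower in this comparison, where all 6 macrophage markers with a cluster were higher too. The counts from the Pre to Fed, with 6 higher and 3 lower, were also near the background (11.2%, against 11.2%).

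Among the initiation and PI3-kinase genes, 4 of 11 rose and 1 fell from the Pre to Mid. *Atg13*, a partner of the ULK1 kinase, rose by 0.83 ± 0.11 on the log2 scale (FDR 4.5e-06) and changed by -1.02 ± 0.11 to the Post (FDR 1.92e-07). *Rubcn*, an inhibitor of the PI3-kinase complex, went the other way, with -0.47 ± 0.14 (FDR 0.0149) and then 0.55 ± 0.14 (FDR 0.00415). In the membrane and conjugation list, 3 of 14 rose and 4 fell. *Wdr45*, a relative of *Wipi1*, rose by 0.42 ± 0.08 (FDR 0.000361), while *Atg4c*, a protease that processes ATG8 proteins, changed by -0.5 ± 0.11 (FDR 0.000723). *Atg5*, part of the conjugation machinery, rose from the Mid to Post by 0.42 ± 0.07 (FDR 2.24e-05). Of the 2 other ATG8 genes, *Gabarap* had a log2FC of -0.22 from the Pre to Mid (FDR 0.0205), and *Gabarapl2* was not called, so that of the 5 ATG8 genes measured *Gabarapl1* and *Map1lc3b* rose, the latter not called without TMM (log2FC 0.3, FDR 0.297).

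Of the selective receptors, 5 of 8 rose from the Pre to Mid, none fell, and 6 of 8 fell to the Post. The receptor of the endoplasmic reticulum *Retreg1* had changes of 1.98 ± 0.21 (FDR 2e-07) and -1.85 ± 0.21 (FDR 1.91e-07). It was not called from the HiT to Mid (0.23 ± 0.19, FDR 0.338). In the mitophagy list, 3 of 10 rose and 1 fell. *Tbk1*, a kinase that acts on cargo receptors, rose by 0.55 ± 0.09 (FDR 9.05e-05), and *Fundc1*, another receptor on mitochondria, had a log2FC of -0.33 ± 0.09 (FDR 0.00591). *Fkbp8*, also a mitochondrial receptor, fell from the Mid to Post by 0.8 (FDR 0.000333), and was the single gene of the 80 called from the Mid to Dep (-0.81 ± 0.16, FDR 0.0147). In experiment 2 its log2FC from the Mid to Post was -0.03 ± 0.09 (FDR 0.873).

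Of the genes for fusion with the lysosome, 2 of 8 rose and none fell, with *Epg5*, a tethering factor, at 0.3 ± 0.08 (FDR 0.00804). *Plekhm1*, an adaptor of the same step, had a log2FC of -0.32 ± 0.09 from the Mid to Post (FDR 0.00551). Among 18 lysosomal genes, 6 rose and 1 fell. *Npc1*, a cholesterol transporter of the lysosome, rose by 1.14 ± 0.14 (FDR 1.66e-06) and changed by -1.35 ± 0.14 to the Post (FDR 9.54e-08), whereas *Ctsa* had -0.22 ± 0.07 from the Pre to Mid (FDR 0.0117) and *Ctsz* rose from the Mid to Post by 0.29 ± 0.1 (FDR 0.0314). *Ctsz* was also higher in the HiT than in the Pre, by 0.75 ± 0.12 (FDR 2.73e-05), in the same libraries as the macrophage markers. Of 9 transcription factors and nutrient sensors, 6 rose and none fell from the Pre to Mid, and 6 fell to the Post. *Fnip1*, a partner of folliculin, had the lowest FDR in both steps, at 1.26 ± 0.1 (FDR 7.94e-09) and -1.18 ± 0.1 (FDR 3.46e-09), and rose in experiment 2 by 0.88 ± 0.12 (FDR 0.00211).

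**Figure D5:**
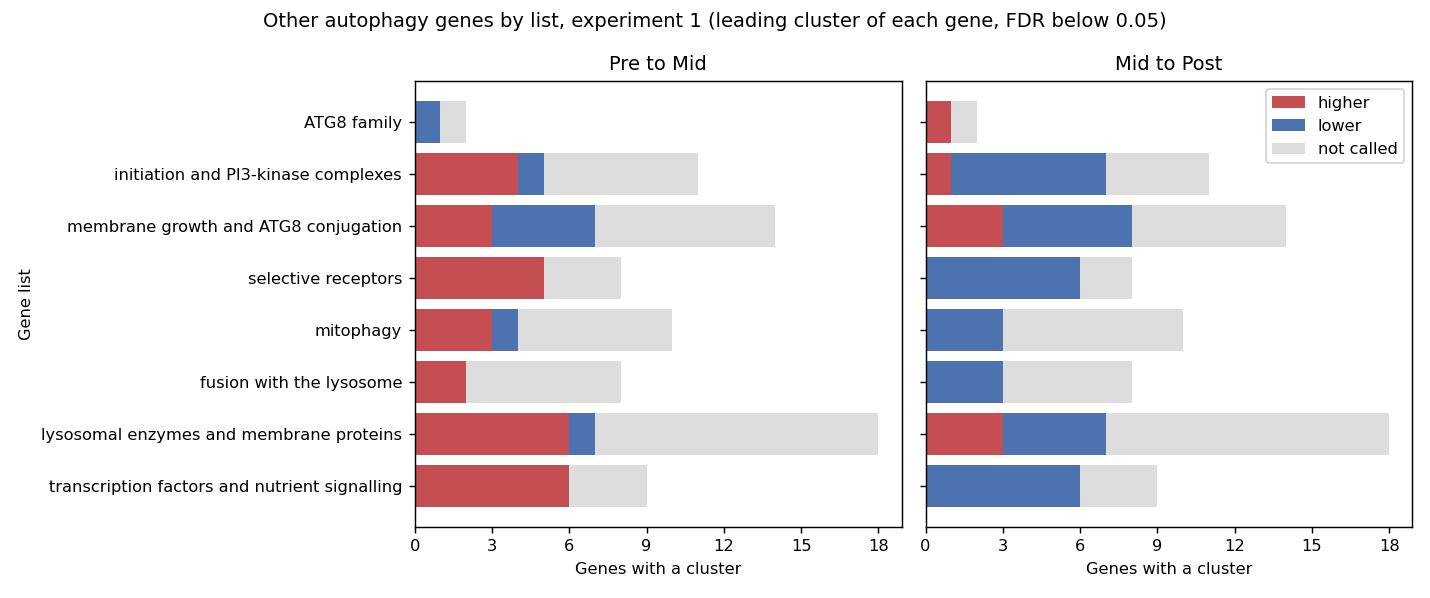
Numbers of genes of 8 lists (x axis, genes with a cluster) that were higher (red), lower (blue) or not called (grey) at an FDR below 0.05 in the Pre to Mid (left) and the Mid to Post (right) in experiment 1. Red bars prevail on the left for the receptor and transcription factor lists, with 5 of 8 and 6 of 9 genes, against 15.4% of all clusters, and blue bars on the right, with 6 of 8 and 6 of 9, against 17.5%.

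The members were also compared by their patterns over the 28 libraries of experiment 1, by Pearson's r of log2(CPM + 0.1), as a description. The libraries share group, depth and normalization, and no p is given. Among the members, *Ctsl* and *Sqstm1* were closest (r = 0.94), followed by *Gabarapl1* and *Sqstm1* (0.921) and *Gabarapl1* and *Ulk1* (0.889). Over all annotated clusters outside the members, 2 clusters of *Plin5*, which coats lipid droplets, were among the 3 closest to *Gabarapl1* (r = 0.98 and 0.972), with *Mafk* (0.976) between them in rank, and in the 10 libraries of experiment 2 the 2 *Plin5* clusters had r of 0.956 and 0.988 and *Mafk* of 0.968. The closest to *Bnip3* was *Etfdh*, an enzyme of mitochondrial electron transfer from fatty acid oxidation (0.963), with *Asb11* (0.907) and *Hsdl2* (0.906) next. The closest to *Ulk1* were *Csnk1d* (0.953), *Rbl2* (0.952) and *Itpkc* (0.948). For *Sqstm1* they were *Fibin* (0.964), *Sar1a* (0.959) and *Spock2* (0.954), and for *Ctsl* they were *Aifm2* (0.929), *Fam107a* (0.928) and *Fibin* (0.926). *Wipi1* was closest to *Rab11fip5* (0.943), *Efcab6* (0.929) and *Psmd8* (0.915). After *Gm6055*, *Map1lc3b* was closest to *Slc25a20*, the carnitine carrier of mitochondria (0.925), and *Isoc2a* (0.883), with r of 0.693 and 0.513 in experiment 2.

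For *Tfeb*, *Map1lc3a* and *Becn1*, the values in experiment 2, which has no HiT, Fed and Dep mice, are given beside those of experiment 1. *Tfeb* was nearest to *Jak2* (0.921), *Nudt3* (0.918) and *Prkar2a* (0.912) in experiment 1, and these had r of -0.667, 0.213 and -0.2 over the 10 libraries of experiment 2. The upstream *Map1lc3a* cluster was nearest to *Coq10a* (0.88), *Cux1* (0.872) and *Kcnma1* (0.867), with r of 0.002, 0.216 and -0.004 in experiment 2. *Becn1* was nearest to *Lypla1* (0.813), *Rnf14* (0.783) and *Rhot2* (0.778), with r of 0.311, -0.138 and 0.503.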

How the data were processed

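CAGE libraries from the soleus of 38 mice were analysed. The authors trimmed reads, aligned them to mm10 (per the labels BWA and HISAT2, versions not given in the sources used here), grouped start sites into promoter clusters and deposited, per cluster and library, rescued tag counts and TPM (tags scaled to the library total). All levels and tests here used the deposited counts, and the TPM were left aside. Clusters were assigned by their peak to a GENCODE vM21 5′ end within 500 bp on the same strand. Each experiment was fitted separately with edgeR 4.0.16 (R 4.3.3): TMM normalization, clusters with any tag, quasi-likelihood test with group as the only term, and Benjamini-Hochberg adjustment over all clusters, with an FDR threshold of 0.05. The SE is the size of the log2FC divided by the square root of F. Levels are TMM-normalized CPM. Tags in clusters ranged from 9359994 to 39176649 per library, and the shallower libraries of experiment 2 give the larger counting error.

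The alternatives were the likelihood ratio test, DESeq2 1.42.0, a filter on low counts, other scalings, a narrower window, fewer or more groups in the fit, the replicate number as a block, sequencing lane, and leaving out each library. The sum of *Map1lc3b* and *Gm6055* tags and the *Map1lc3a* share were added after seeing the data. On simulated counts with 200 clusters changed by a log2FC of 1, 91% were recovered from the Pre to Mid in experiment 1 and 68% in experiment 2. For the difference between experiments, 66.5% were recovered for the Pre to Mid change and 70.5% for the Mid to Post change. Smaller changes, or as many changed clusters as in the data, were not simulated, so these values do not cover them. The members and the gene and marker lists were chosen with earlier results of these data known. Named genes were all members, the gene of each pathway list with the lowest FDR in each direction in the fasting (Pre to Mid) and refeeding (Mid to Post) steps, and the 3 annotated clusters closest in pattern to each member. The 72 pairs of libraries within a group all differed by more than sampling noise. Replicates are different mice.

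Summed marker levels in experiment 1 were 5160 to 9690 CPM for fast fibre, 77.3 to 523 for adipocyte and 142 to 191 for endothelium. Red blood cell markers reached 13700 CPM in 1 Fed library. Neutrophil markers, 4 of 6 of which had a cluster, reached 133 CPM in 1 Dep library and at most 1.56 elsewhere in experiment 1. In experiment 2, fast fibre markers were at 17700 to 25100 and slow fibre markers at 20000 to 31100 CPM.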

Additional observations from a re-analysis of the deposited data

Results flagged for a closer look

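Of 77 combinations of a member cluster and a group of 4 to 8 libraries, 6 held 1 library whose gap to the nearest of the others was above the 95% critical value of Dixon's test, which chance exceeds in about 1 of 20. *Ulk1* was at 41.8 CPM in Mid 6, against 83.3 to 118 in the other Mid mice. *Ulk1* was at 82.5 CPM in HiT 1, against 56.5 to 60.1 in the other HiT mice. *Wipi1* was at 120 CPM in HiT 3, against 92.7 to 97 in the others. *Tfeb* was at 31.3 CPM in Mid 3, against 19.5 to 25.1 in the others. *Bnip3* was at 937 CPM in Dep 1, against 1010 to 1020 in the others. The upstream *Map1lc3a* cluster was at 325 CPM in Fed 1, against 276 to 278 in the others.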

How the results depend on the processing

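With library size in place of TMM, 3 members were called from the Pre to Mid in experiment 1 (*Gabarapl1*, *Sqstm1*, *Ulk1*), 4 from the Mid to Post (these and *Ctsl*), 0 from the Pre to Fed and 4 from the Pre to Dep. This scaling moved the median log2FC of all clusters by up to 0.18, and the cause of the lost calls was not tested. Without TMM, uncalled values changed sign to -0.09 (*Becn1*, Fed to Mid), -0.11 (*Becn1*, Mid to Dep), -0.11 (*Ctsl* and *Wipi1*, Pre to HiT), 0 (*Map1lc3b*, Pre to HiT) and 0.04 (*Becn1*, experiment 2, Mid to Post), as did *Tfeb* from the Mid to Post with all 38 libraries (0.03). *Wipi1* from the Pre to HiT ranged from -0.02 to 0.1 when 1 library was left out. From the Mid to Dep, 1 member (*Tfeb*) was called by the likelihood ratio test, by DESeq2 and with the replicate block. From the Pre to Post, 1 (*Gabarapl1*) was called with only the compared groups and with the replicate block. With lane as a term, 2 were called from the Mid to Post in experiment 2.

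Same-numbered libraries did not deviate together by their median r (-0.008 over 60 pairs, against 0.009 over 260 others). Single pairs ranged from -0.413 to 0.501, against -0.536 to 0.7, and pairs reuse the same libraries. Whether the numbers pair some of the mice thus cannot be told from these values, and the main fits did not use the numbers. With the replicate block, the downstream *Map1lc3a* cluster changed sign from the Mid to Dep (0.14, not called). No paired analysis was possible for experiment 2 because its Mid libraries share no numbers with the others. In experiment 1 the same holds for Mid 5 to Mid 8, which therefore add nothing to a comparison fitted with the replicate block.

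Leaving out 1 library gave 6 to 7 called members from the Pre to Mid, 5 to 8 from the Mid to Post, 6 to 10 from the HiT to Mid, 7 from the Fed to Mid, 0 to 1 from the Mid to Dep, 4 to 6 from the Pre to HiT, 0 to 2 from the Pre to Fed, 8 from the Pre to Dep and 0 from the Pre to Post, and in experiment 2, 1 to 6 and 4 to 6. Of 1122 single values under other alternatives, 29 lost and 22 gained a call and 8 changed sign, and of 1177 with 1 library left out, 39 lost and 19 gained a call and 1 changed sign.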
